A study of Mus musculus with 30 samples.

Results

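The Krüppel-like factors (Klf) are transcription factors that bind GC-rich and CACCC-type DNA through zinc fingers, and 10 of them, Klf2, Klf3, Klf4, Klf5, Klf6, Klf7, Klf8, Klf9, Klf10 and Klf12, were followed by symbol through the gene count matrix of 25400 genes. All 10 passed the filter on low counts, which kept 16582 genes for testing. The matrix holds 24 poly(A) RNA-seq libraries of mouse embryonic stem cell (ESC)-derived neural progenitor cells (NPCs), 3 for each of 8 lines made in one ESC background (a line from a hybrid of inbred strains, carrying the BirA biotin ligase). The lines were wild type (WT), Mbd3-KO, in which the NuRD subunit gene Mbd3 was disrupted with CRISPR-Cas9, and 6 lines that expressed a tagged construct in the Mbd3-KO background from one genomic site under the CAG promoter. The constructs were Mbd3a (full length), Mbd3a_delMBD (MBD3ΔMBD, without the methyl-CpG-binding domain), Mbd2a (full length), Mbd2a_delGR (MBD2aΔGR, without the glycine-arginine repeat), Mbd2a_R181C (MBD2aR181C, a substitution in the methyl-CpG-binding domain) and Mbd2t (without the C-terminal coiled-coil). The libraries of a line came from separately derived clones, except those of MBD2t, which were repeats of 1 clone and whose spread is therefore technical. The 6 chromatin immunoprecipitation samples of the series were not analysed here.

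Members of the family fall into groups by the partners that their N-terminal parts recruit. Klf2, Klf4, Klf5, Klf6 and Klf7 mostly activate transcription, Klf3, Klf8 and Klf12 repress it through the corepressor CtBP, and Klf9 and Klf10 recruit the Sin3 corepressor. Klf2, Klf4 and Klf5 belong to the naive pluripotency network of ESCs, where Klf4 lies downstream of the cytokine LIF and STAT3, and they are normally silenced as ESCs commit to a lineage. Klf7 and Klf12 are known from the developing nervous system, and Klf9 and Klf10 from the responses to thyroid or glucocorticoid hormone and to TGF-β.

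The proteins that the members encode shared their DNA-binding end. In the translated coding transcripts of the GENCODE annotation, each of the 10 held a block of 3 C2H2 zinc fingers spanning 81 residues. Identity within this block ranged from 60.5% to 95.1% over the 45 pairs, with a median of 77.8%. The closest pair was Klf6 and Klf7 at 95.1%, followed by Klf2 and Klf4 and by Klf3 and Klf12, at 91.4% each. Klf6 and Klf9 were the least alike, at 60.5%. The 5-residue CtBP-binding motif, searched only as the exact pattern P-any-D-L-S, was found in Klf8 and in Klf12 but not in Klf3. Variants of the pattern were not searched for, so this does not show that Klf3 lacks a CtBP-binding motif.

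Promoter windows of 300 bases were read from RefSeq on GRCm38.p6, a later build than the mm9 build of the count matrix, and 8 of the 10 members had an entry. Klf5 and Klf10 had none. The GC box GGGCGG, searched on both strands, occurred 6 times for Klf3, 4 times for Klf4, 2 times for Klf2 and 1 time for Klf6, Klf7 and each of the 2 starts of Klf8, and was not found for Klf9 and Klf12. Of all 32851 mouse windows of this length, 35.7% held it. The window of Klf12 held 1 match each to the CACCC box GGGTGTGG, present in 3.56% of windows, and to TATAAA, present in 13.6%. The stretches below are examples from members that rose without Mbd3 (Klf2, Klf4 and Klf6) or fell (Klf7 and Klf12). Klf8 and Klf9 also rose, Klf9 without a GC box, and Klf3, with the most matches, was in neither group. A link between these motifs and the direction of change was not tested. Each is written 5′ to 3′ on the gene's strand, with capitals marking the GC box, or for Klf12 the CACCC box, on either strand.
Klf2, chr8:72318822-72318881, plus strand, positions −240 to −181 from the start: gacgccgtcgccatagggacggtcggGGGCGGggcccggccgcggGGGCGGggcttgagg
Klf4, chr4:55532659-55532718, minus strand, positions −243 to −184 from the start: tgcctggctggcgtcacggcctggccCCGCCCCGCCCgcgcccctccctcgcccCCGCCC
Klf6, chr13:5861400-5861459, plus strand, positions −89 to −30 from the start: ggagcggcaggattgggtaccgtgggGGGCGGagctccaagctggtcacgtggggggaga
Klf7, chr1:64121573-64121632, minus strand, positions −243 to −184 from the start: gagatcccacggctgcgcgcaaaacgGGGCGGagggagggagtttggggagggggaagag
Klf12, chr14:100149980-100150039, minus strand, positions −243 to −184 from the start: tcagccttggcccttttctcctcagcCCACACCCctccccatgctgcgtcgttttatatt
The GC content of the windows ran from 45.7% for Klf12 to 76.7% for Klf3 and was 58.3% for Klf7, while the windows of the members that rose held 57.3% to 74.3%.

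Library totals ranged from 27993858 to 49392806 counts, and a count of 3 corresponded to at most 0.115 CPM, the count per gene scaled to a common library total. Mbd3 itself stood at 149 to 157 CPM in WT and, in the disrupted line, still at 34.2 to 73.8 CPM, with 168 to 198 CPM in MBD3a, 423 to 496 CPM in MBD3ΔMBD and 36.4 to 86.5 CPM in the 4 lines with an Mbd2 construct. Mbd2 stood at 280, 451 and 700.2 CPM in the MBD2aΔGR libraries and at 253 to 356 CPM in MBD2aR181C and MBD2t. In MBD2a, Mbd2 stood at 67.0 to 87.2 CPM, which overlapped the 64.2 to 70.9 CPM of Mbd3-KO, so the gene counts did not check the label MBD2a. The 9 neural progenitor markers tested, among them Pax6, Nes and Neurog2, summed to 954 to 1441 CPM in WT, and the sum was 68.3 to 187 CPM in Mbd3-KO, MBD2a and MBD2t, and all 9 fell in each of these lines. All 10 epithelial markers rose in the same lines. All 10 trophoblast markers rose in Mbd3-KO and MBD2t, and 6 of them in MBD2a. At the same thresholds, 33.8% of all genes changed in Mbd3-KO, 30.6% in MBD2a and 33.4% in MBD2t. The part of these other cell types in the Klf values was not tested. In bulk libraries, fewer cells of a type and less RNA per cell cannot be told apart.

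Per kilobase of exon, Klf3 had the highest mean level of the 10 members in WT, at 24.5 ± 5.71 CPM per kilobase (RPKM; SD, n = 3), and Klf6 came next at 17.2 ± 1.14 RPKM. Klf7 and Klf10 were at 13 ± 5.11 and 12.8 ± 2.20 RPKM, within their spread. Klf4 at 2.48 ± 0.52 RPKM, Klf5 at 2.52 ± 0.89 RPKM and Klf8 at 0.945 ± 0.322 RPKM were the lowest. In Mbd3-KO the order of the means changed: Klf2 led at 71.2 ± 39.3 RPKM, followed by Klf6 at 48.4 ± 8.29 RPKM. The ranges of these genes overlapped, at 39.1 to 115 RPKM for Klf2 and 40.1 to 56.6 RPKM for Klf6. Klf12 was last at 0.808 ± 0.315 RPKM.

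**Figure D1:**
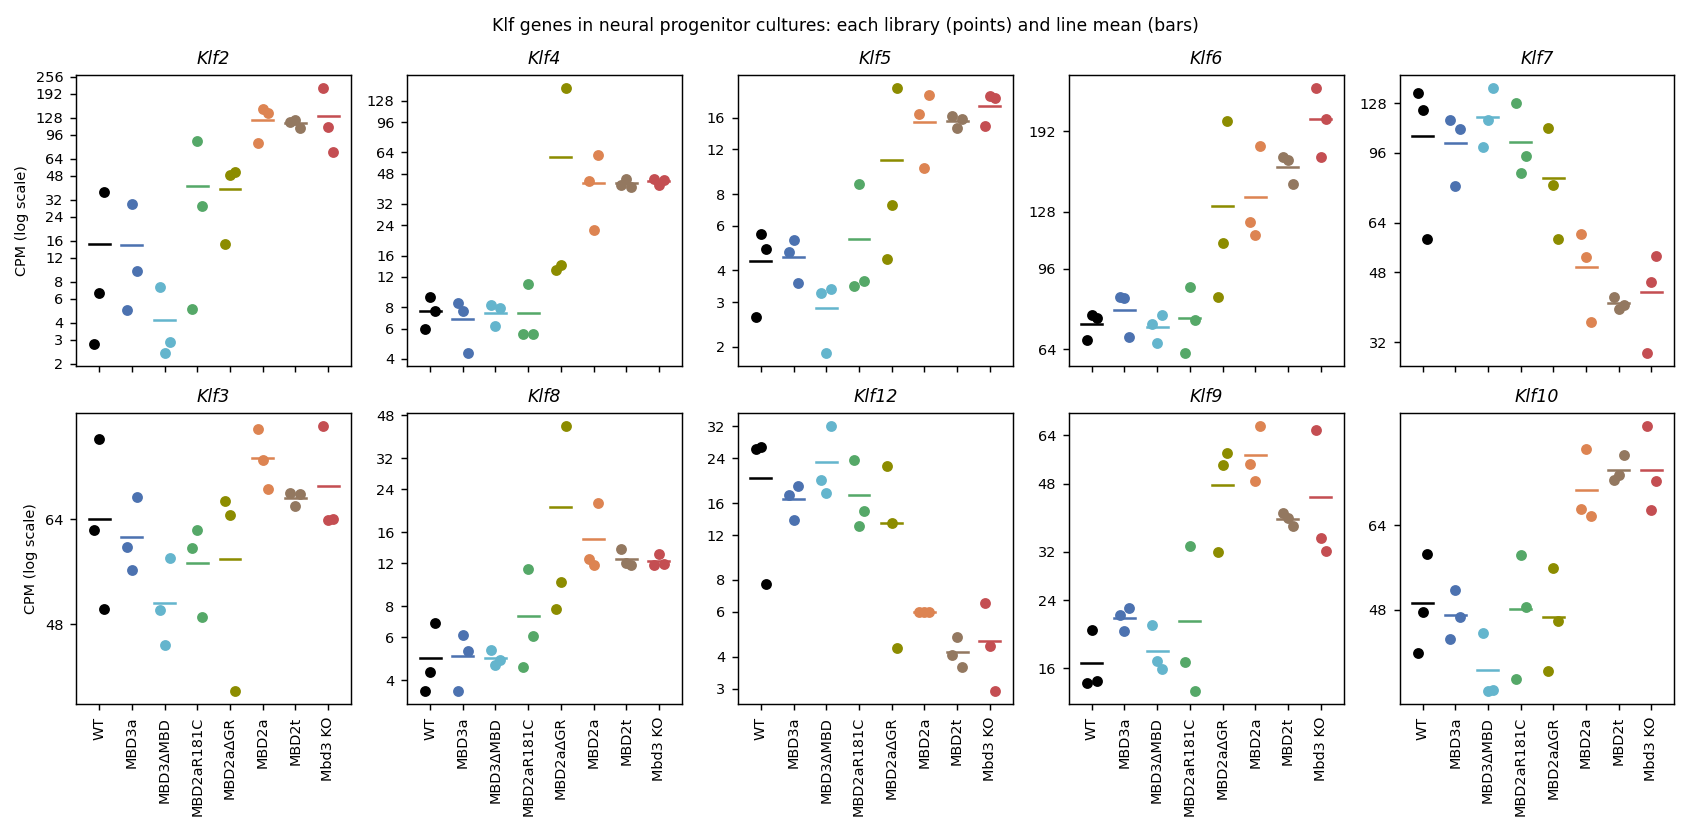
Level of each of the 10 Klf genes in CPM (log scale) in the 3 libraries (points) of each of the 8 lines, with the line mean as a bar. Klf2, Klf4, Klf5, Klf6, Klf8, Klf9 and Klf10 are high and Klf7 and Klf12 low in Mbd3-KO, MBD2a and MBD2t, Klf3 stays between 39.97 and 82.7 CPM, and the third MBD2aΔGR library stands apart for Klf4 at 152.5 CPM and Klf8 at 43.2 CPM.

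The comparison of Mbd3-KO with WT asked how loss of Mbd3 changed expression in cells taken through neural differentiation. Of the 10 members, 8 were called (adjusted p under 0.05 and more than 2-fold, edgeR quasi-likelihood test): Klf2, Klf4, Klf5, Klf6, Klf8 and Klf9 rose, and Klf7 and Klf12 fell. Over all genes tested, 33.8% were called, 19.6% as higher and 14.2% as lower, and the median log2 fold change was 1.37 over the members and −0.03 over all genes. In 9 of the 10 members every Mbd3-KO library lay on one side of all WT libraries, and the same held for 62.2% of all genes tested.

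Of the activators, Klf2 (chr8:74842932-74845555 on mm9, plus strand), a flow-responsive factor of endothelium as well as of ESCs, had the largest estimate. It stood at 2.79, 6.60 and 36.3 CPM in the WT libraries, against 212, 109.6 and 72.3 CPM in the Mbd3-KO libraries. The third WT library was more than 5 times as high as the second, and the groups still did not overlap. The log2 fold change was 3.10 with an SE of 0.91 (adjusted p = 0.00637), and 4.80 without the third WT library. Klf4, one of the reprogramming factors (chr4:55540013-55545347, minus strand), stood at 5.99, 9.19 and 7.60 CPM in WT, against the narrow range of 41.2 to 44.5 CPM in Mbd3-KO. Its log2 fold change was 2.51 with an SE of 0.66 (adjusted p = 0.00308).

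Klf5, which supports self-renewal of ESCs and the growth of epithelia (chr14:99697910-99712624, plus strand), stood at 2.63, 5.56 and 4.84 CPM in WT, against 14.8, 19.5 and 19.1 CPM in Mbd3-KO. Every Mbd3-KO library was above every WT library, and the log2 fold change was 2.04 with an SE of 0.45 (adjusted p = 7.98e-04). Klf6, an early response activator found in most tissues (chr13:5860735-5869639, plus strand), was already abundant in WT at 67.2, 76.0 and 74.9 CPM and reached 239, 169 and 204.5 CPM in Mbd3-KO. Its log2 fold change of 1.49 had an SE of 0.24 (adjusted p = 3.47e-05), the lowest adjusted p among the members in this comparison.

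Klf7, an activator required for the growth of axons (chr1:64076021-64168856, minus strand), moved the other way. It stood at 136, 123 and 58.4 CPM in WT, against 30.1, 45.5 and 52.7 CPM in Mbd3-KO, so the third WT library was close to the highest Mbd3-KO library without overlapping it. The log2 fold change was −1.30 with an SE of 0.29 (adjusted p = 9.01e-04). The 728 expressed genes of chromosome 1 had a median log2 fold change of −0.35 in this comparison, against −0.11 over all expressed genes. Within Mbd3-KO the first library, lowest for Klf7, had a chromosome 1 median of −0.38 (log2) relative to the line's other libraries, and the third library, highest for Klf7, had 0.29; the part of the chromosome in the Klf7 value was not tested. Exons of Klf7 share 3196 bases with the opposite-strand gene Gm17427, which is not in the count matrix, and as the strand setting of the counting is not given in the sources used here the Klf7 count is uncertain to that extent.

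Among the CtBP-dependent repressors the 3 members each did something different. Klf12 (chr14:100269869-100549015, minus strand), known as a repressor of Tfap2a, stood at 26.03, 26.6 and 7.69 CPM in WT, against 6.52, 4.43 and 2.94 CPM in Mbd3-KO. The third WT library was again the one nearest to Mbd3-KO, and the log2 fold change was −2.12 with an SE of 0.48 (adjusted p = 9.78e-04). Klf8 (chrX:149672009-149830675, plus strand) stood at 3.62, 4.32 and 6.82 CPM in WT, against 11.8, 13.1 and 11.9 CPM in Mbd3-KO. Its log2 fold change of 1.31 (SE 0.49, adjusted p = 0.0257) was the least firm of the 8 calls: it was not called when the first WT library (adjusted p = 0.0874), the second WT library (0.0684) or the second Mbd3-KO library (0.0528) was left out. Klf3 (chr5:65194628-65221368, plus strand), best known as a repressor in blood and fat cells, stood at 62.2, 79.8 and 50.1 CPM in WT and 82.7, 63.96 and 64.1 CPM in Mbd3-KO. These ranges overlapped and the log2 difference was 0.13 with an SE of 0.18 (adjusted p = 0.54).

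Of the Sin3-binding members, Klf9 (chr19:23215716-23241401, plus strand) stood at 14.7, 20.1 and 14.8 CPM in WT, against 66.1, 34.7 and 32.1 CPM in Mbd3-KO. Its log2 fold change was 1.42 with an SE of 0.30 (adjusted p = 4.93e-04), and 1.01 without the first Mbd3-KO library, in which it was about 2 times as high as in the other 2. Klf10, also known as the TGF-β-inducible early gene (chr15:38221219-38230464, minus strand), stood at 41.5, 47.7 and 58.1 CPM in WT, against 89.7, 67.5 and 74.5 CPM in Mbd3-KO. The groups did not overlap and the adjusted p was 0.00206, but the log2 fold change of 0.65 (SE 0.16) was under 2-fold.

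**Figure D2:**
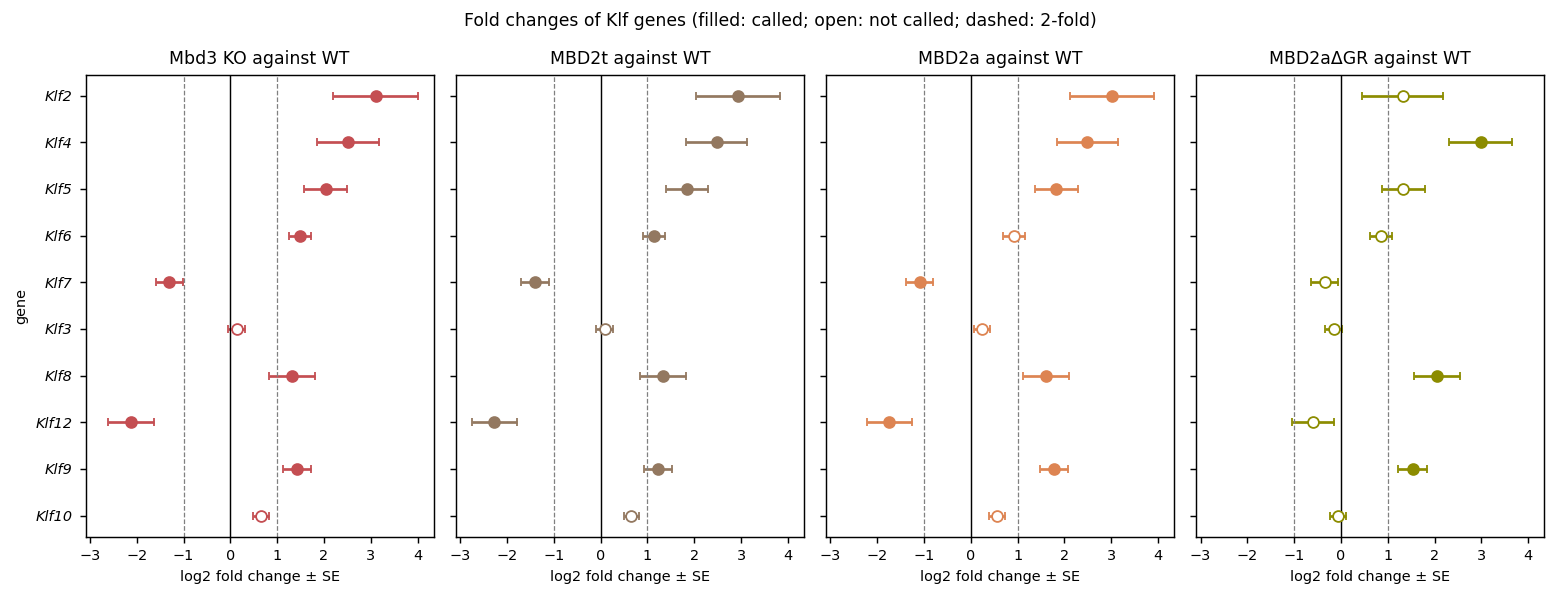
Log2 fold change (points) with its SE (bars) of the 10 Klf genes in Mbd3-KO, MBD2t, MBD2a and MBD2aΔGR against WT; filled points were called, open points were not, and dashed lines mark 2-fold. Mbd3-KO and MBD2t have the same 8 genes called, from 3.10 and 2.93 for Klf2 to −2.12 and −2.27 for Klf12, and in MBD2aΔGR the calls are Klf4, Klf8 and Klf9.

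Re-expression of either Mbd3 construct reversed the calls made in Mbd3-KO. Against Mbd3-KO, 8 of 10 members were called in MBD3a, beside 32.4% of all genes, and 8 of 10 in MBD3ΔMBD, beside 35.9%. In both the 8 were those called in Mbd3-KO against WT, each with the opposite sign, a comparison that shares its Mbd3-KO libraries with the other two. Klf2 stood at 4.99, 29.8 and 9.65 CPM in MBD3a and at 7.30, 2.42 and 2.90 CPM in MBD3ΔMBD. It was thus 3.15 (SE 0.91) and 5.01 (SE 1.02) lower on the log2 scale than in Mbd3-KO (adjusted p = 0.00643 and 3.22e-04). Klf4 stood at 4.34 to 8.41 CPM in the 6 libraries of both lines. Klf10 was not called in either line, with log2 differences under 2-fold of −0.71 (SE 0.16, adjusted p = 0.00116) in MBD3a and −0.98 (SE 0.16, adjusted p = 4.64e-05) in MBD3ΔMBD. The latter passed 2-fold in 3 of the 6 fits that left out 1 library, the largest being −1.10 without the second Mbd3-KO library. Klf8 in MBD3a (log2 difference −1.29, adjusted p = 0.0312) lost its call when either the first or the second Mbd3-KO library, or the first or the third MBD3a library, was left out, with adjusted p from 0.0511 to 0.104, and in MBD3ΔMBD when the second or the third library of that line was, at 0.0635 and 0.0529. Klf9 was under 2-fold without the first Mbd3-KO library, at −0.63 in MBD3a and −0.91 in MBD3ΔMBD, and in MBD3a also without the second library of that line (−0.99).

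Against WT, none of the 10 members was called by edgeR in MBD3a, where 0% of all genes were called, or in MBD3ΔMBD, where 0.0181% were. DESeq2 called 0 members in both, and 0 had an unadjusted p under 0.05. The largest difference was that of Klf2 in MBD3ΔMBD, at −1.91 on the log2 scale with an SE of 0.95 (adjusted p = 0.70) and at −0.20 without the third WT library. Klf9 in MBD3a was 0.39 higher with an SE of 0.30, and its chromosome 19 had a median of 0.25 (log2) in the third MBD3a library relative to the other 2 of that line. The standard errors of Klf2 and Klf4 in these comparisons were 0.67 to 0.95, so that a 2-fold difference would have lain within 2 SE. These SEs rest on the spread shared over all 8 lines, which for Klf4 includes MBD2aΔGR at 13.2 to 152.5 CPM. Within WT, MBD3a and MBD3ΔMBD alone, Klf4 had SDs of 1.60, 2.15 and 1.10 CPM at means of 7.59, 6.78 and 7.43 CPM.

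In MBD2a most members differed from WT, and none was called against Mbd3-KO. Against WT, 7 of 10 members were called, beside 30.6% of all genes: Klf2, Klf4, Klf5, Klf8 and Klf9 rose and Klf7 and Klf12 fell. Klf2 stood at 83.5, 148 and 139 CPM, above all WT libraries (log2 fold change 3.01, SE 0.90, adjusted p = 0.00843, and 4.72 without the third WT library). Klf12 stood at 6.01, 5.98 and 5.99 CPM, the tightest values of any member in any line. Klf4 was more variable, at 43.8, 22.5 and 61.8 CPM, with a log2 fold change of 2.49 (SE 0.66, adjusted p = 0.00373).

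In MBD2a, Klf9 reached 54.0, 48.8 and 67.5 CPM, its highest line mean at 56.8 ± 9.66 CPM (SD, n = 3). Klf6 at 122, 114 and 178 CPM had an adjusted p of 0.00282 but a log2 fold change of 0.93 (SE 0.24); without the first or the second MBD2a library it passed 2-fold, at 1.02 and 1.05. Klf7 at 60.1, 52.5 and 36.0 CPM overlapped WT through the third WT library, and its log2 fold change of −1.09 (adjusted p = 0.00399) was under 2-fold without the first WT (−0.88), the second WT (−0.98) or the third MBD2a library (−0.90). That MBD2a library had a chromosome 1 median of −0.39 (log2) relative to the line's other libraries. Against Mbd3-KO, 0 of 10 members were called by edgeR and 0 by DESeq2, beside 5.25% of all genes. Only Klf6 had an unadjusted p under 0.05, with a log2 difference of −0.56 (SE 0.23, adjusted p = 0.15).

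MBD2t, the isoform without the coiled-coil, gave the same calls as Mbd3-KO. Against WT, 8 of 10 members were called, with the signs seen in Mbd3-KO, beside 33.4% of all genes; the 2 comparisons share the WT libraries. Klf2 stood at 119.7, 123 and 107 CPM, Klf4 at 41.5, 45.0 and 40.4 CPM and Klf12 at 4.08, 4.77 and 3.64 CPM, all outside the WT range. Their log2 fold changes were 2.93 (SE 0.90), 2.48 (SE 0.66) and −2.27 (SE 0.48), with adjusted p of 0.00886, 0.00335 and 5.43e-04, and Klf2 was at 4.63 without the third WT library. As the MBD2t libraries are repeats of 1 clone, the SEs and p-values of this line rest on a spread estimated over all lines and do not cover differences between MBD2t clones. Klf8 (1.34, SE 0.48, adjusted p = 0.0230) again lost its call without the first WT (0.0825), the second WT (0.0643) or the first MBD2t library (0.0529). Against Mbd3-KO, edgeR called 0 of 10 members and DESeq2 0, with 0 at an unadjusted p under 0.05, beside 0.0241% of all genes. Against MBD2a the counts were likewise 0, 0 and 0, beside 4% of all genes, and Klf9 showed the largest difference, −0.55 (SE 0.29, adjusted p = 0.31), with 40.4, 39.0 and 37.2 CPM in MBD2t below all MBD2a libraries.

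In MBD2aΔGR the libraries differed widely among themselves, and 1 library decided most of the calls. Against WT, 3 of 10 members were called in MBD2aΔGR, beside 5.16% of all genes: Klf4, Klf8 and Klf9. Klf4 stood at 13.2, 14 and 152.5 CPM and Klf8 at 7.80, 10.1 and 43.2 CPM. The third library held the highest value of all 24 libraries for both genes, while the first and second lay between WT and Mbd3-KO. The log2 fold changes were 2.98 (SE 0.67, adjusted p = 0.0165) for Klf4 and 2.05 (SE 0.49, adjusted p = 0.0199) for Klf8. Without the third library they were 0.84 (adjusted p = 0.28) and 0.86 (adjusted p = 0.26), and 0 of 10 members were called.

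The 10 markers of primitive and visceral endoderm, which include Gata4, Gata6 and Sox17, summed to 1343 CPM in the third library, against 137 and 109.5 CPM in the other MBD2aΔGR libraries and 69.1 to 80.2 CPM in WT, and none of the markers was at 0 counts in any library. The third library was also the lowest of the line for Klf3 at 40.0 CPM, Klf7 at 58.2 CPM and Klf12 at 4.35 CPM, and the highest for Klf5 at 20.97 CPM and Klf6 at 203 CPM. It had the highest Mbd2 level of the line, 700.2 CPM against 280 and 451 CPM, and Mbd3 at 86.5 CPM against 45.8 and 42.0 CPM. The next highest endoderm sum, 402 CPM, was in the third MBD2a library, which had the second highest Klf4 and Klf8 levels of all libraries at 61.8 and 21 CPM. That MBD2a library also had the highest epithelial marker sum of all libraries, 4209 CPM, and the highest trophoblast sum of its line, 578 CPM. The third MBD2aΔGR library had the highest epithelial sum of its line, 1616 CPM against 605 and 699 CPM. Its trophoblast sum of 56.4 CPM lay within the WT range of 28.3 to 64.4 CPM. The part of endoderm cells, of other cell types or of the Mbd2 RNA level in these values was not tested.

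**Figure D3:**
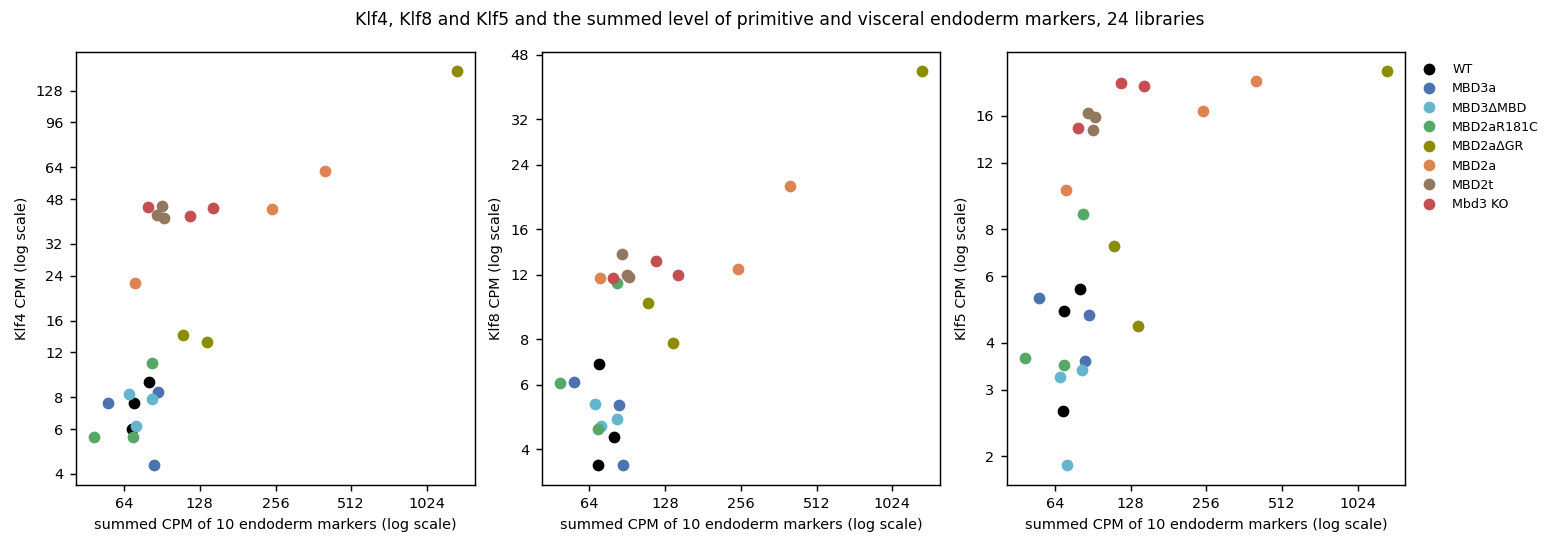
Klf4, Klf8 and Klf5 in CPM (log scale) against the summed CPM of 10 primitive and visceral endoderm markers (log scale) in the 24 libraries, coloured by line. The third MBD2aΔGR library lies alone at the upper right, at 1343 CPM of markers and 152.5 CPM of Klf4, whereas the Mbd3-KO and MBD2t libraries reach 40.4 to 45.0 CPM of Klf4 at marker sums of 79.4 to 144 CPM.

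Of the called members, Klf9 was the one whose size did not rest on the third library. It stood at 31.9, 53.6 and 57.6 CPM, every library above the WT maximum of 20.1 CPM, with a log2 fold change of 1.53 (SE 0.30, adjusted p = 0.00814). Leaving out the third library gave 1.37 (adjusted p = 0.0527) and leaving out the first WT library 1.41 (adjusted p = 0.0510), so the size held while the call did not. Without the first WT library 0 of 10 members were called, without the second WT library 1, and without the first MBD2aΔGR library 5; a fit of WT and MBD2aΔGR alone also called 0. Klf5 (1.33, SE 0.46, adjusted p = 0.0742) was not called, and its difference was 0.43 without the third MBD2aΔGR library and 1.64 (adjusted p = 0.0130) without the first. Klf6 (0.86, SE 0.24, adjusted p = 0.0326) was under 2-fold, and 0.41 without the third. Klf2 stood at 15.1, 48.5 and 50.8 CPM, overlapping WT, with a log2 difference of 1.32 (SE 0.86, adjusted p = 0.35). That difference was 0.79 without the first WT library and 3.03 without the third (adjusted p = 0.0524).

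Against Mbd3-KO, 1 of 10 members was called in MBD2aΔGR, beside 25.2% of all genes. Klf12 at 22.3, 13.4 and 4.35 CPM was 1.53 higher on the log2 scale (SE 0.48, adjusted p = 0.0144), although the third library lay within the Mbd3-KO range. The call was lost without the second or the third Mbd3-KO library or the first MBD2aΔGR library (adjusted p = 0.0519, 0.0745 and 0.165). Klf7 (0.95, adjusted p = 0.0119), Klf6 (−0.63, adjusted p = 0.0334) and Klf10 (−0.72, adjusted p = 0.00142) passed the p threshold at less than 2-fold. Without the third MBD2aΔGR library 5 members were called, Klf6 (−1.08) and Klf7 (1.16) among them. Against MBD2aΔGR, full-length MBD2a had 0 of 10 members called by edgeR and 0 by DESeq2, beside 18.6% of all genes, with 4 members at an unadjusted p under 0.05, and 3 were called without the third MBD2aΔGR library. Klf10 was 0.62 higher in MBD2a (SE 0.16, adjusted p = 0.00637). Mbd2 RNA was lower in MBD2a than in MBD2aΔGR (−2.57, SE 0.22, adjusted p = 1.66e-06), and its part in these values was not tested. For the protein, the study reported equal levels of MBD2a, MBD2b and MBD2aΔGR on Western blots of ESCs.

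In MBD2aR181C, with the substituted methyl-CpG-binding domain, no member was called different from WT. Here edgeR and DESeq2 each called 0 of 10 members and 0 had an unadjusted p under 0.05, beside 0.0181% of all genes. Klf2 was the exception in its spread, at 5.01, 86.9 and 28.9 CPM, so that its second library was above the lowest of Mbd3-KO; the log2 difference from WT was 1.39 with an SE of 0.86, and it was 0.10 without that second library and 3.10 without the third WT library. That second library was also the highest of the line for Klf4, Klf5, Klf6, Klf8, Klf9 and Klf10, with 11.4 CPM of Klf8 and 33.1 CPM of Klf9. Against Mbd3-KO, 6 of 10 members were called, beside 31.1% of all genes: Klf4, Klf5, Klf6 and Klf9 were lower, by 2.57, 1.76, 1.45 and 1.06 on the log2 scale, and Klf7 and Klf12 higher, by 1.26 and 1.90. Klf9 (adjusted p = 0.00498) fell short of a call without the first Mbd3-KO library (−0.66) or without the first (−0.94) or the third (−0.83) MBD2aR181C library. Without the second MBD2aR181C library 8 were called, with Klf2 at −2.999 (adjusted p = 0.0137) and Klf8 at −1.24 (adjusted p = 0.0477).

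Set directly against MBD2aR181C, full-length MBD2a had 5 of 10 members called, beside 27.3% of all genes. Klf4 (2.55, SE 0.66), Klf5 (1.55, SE 0.45) and Klf9 (1.42, SE 0.30) were higher in MBD2a, and Klf7 (−1.05, SE 0.29) and Klf12 (−1.52, SE 0.47) lower, with adjusted p from 7.11e-04 for Klf9 to 0.0122 for Klf12. Klf7 lost its call without the first MBD2aR181C library (adjusted p = 0.0514) or, at −0.86, without the third MBD2a library, and Klf12 without the first MBD2aR181C library (adjusted p = 0.0806). Without the second MBD2aR181C library 8 members were called, with Klf2 at 2.91 and Klf8 at 1.54. Mbd2 RNA was lower in MBD2a than in MBD2aR181C (−1.79, SE 0.22, adjusted p = 5.01e-06), which does not measure the protein. The part of the Mbd2 RNA level in these Klf differences was not tested. The comparisons of the rescue lines with WT and with Mbd3-KO share those libraries, so their counts are not independent of each other.

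Over the 24 libraries, Klf7 and Klf12 ran against most of the other members. Correlations of log2 CPM are given here as a description without a test, since the points share lines and scaling. Klf4 correlated with Klf6 at r = 0.94 (Spearman 0.94) and with Klf5 at r = 0.94 (Spearman 0.88). Klf7 and Klf12 correlated with each other at r = 0.91 (Spearman 0.89) and were inversely related to Klf2, at r = −0.92 for Klf7 (Spearman −0.94) and r = −0.85 for Klf12 (Spearman −0.81). Klf3 had r between −0.32 and 0.55 to the other 9 over the libraries, but over the 8 line means r was 0.91 with Klf10, 0.80 with Klf2 and with Klf5, −0.83 with Klf7 and −0.80 with Klf12. The third WT library shows the same arrangement within a single line, with Klf2 at its WT maximum of 36.3 CPM and Klf7 and Klf12 at their WT minimum.

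**Figure D4:**
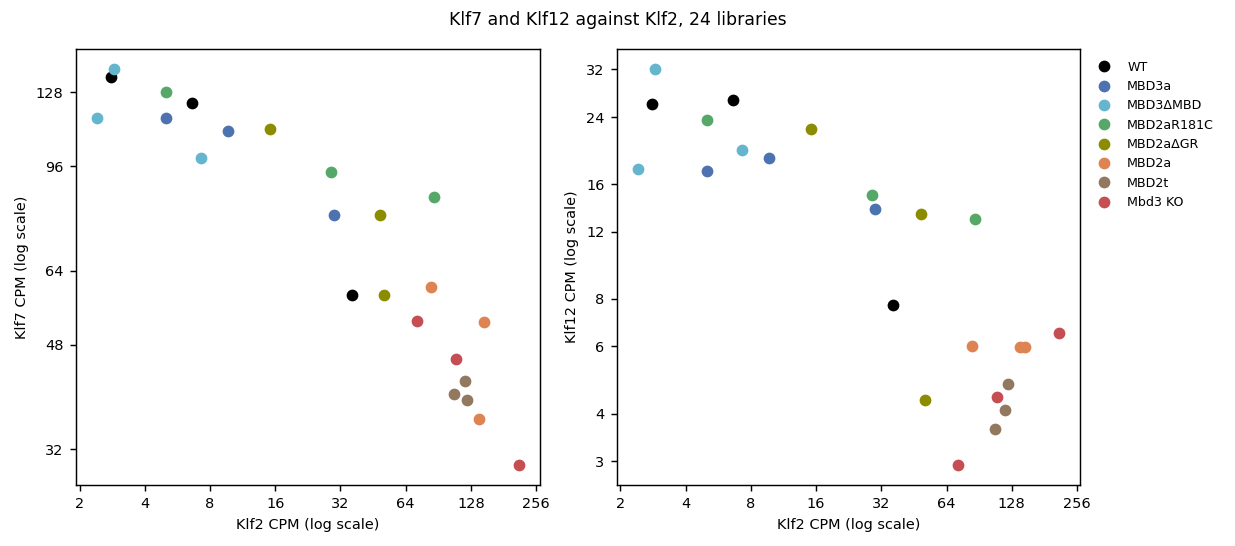
Klf7 (left) and Klf12 (right) against Klf2, each in CPM on a log scale, in the 24 libraries coloured by line. Both fall as Klf2 rises: the Mbd3-KO, MBD2a and MBD2t libraries have 72.3 to 212 CPM of Klf2 and at most 60.1 CPM of Klf7, and the third WT library, at 36.3 CPM of Klf2, is the WT library nearest to them.

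Among the 12793 genes outside the Klf and Sp families with sufficient level, those nearest to each member in pattern differed by member. For Klf2 they were Pou5f1 (r = 0.99) and Zfp42 (r = 0.99), both markers of undifferentiated ESCs. For Klf4 they were Yipf2 and Hbegf (r = 0.98 each), for Klf5 Esyt3 and Lmo7 (0.98 each), and for Klf6 Snx9 and Rnf128 (0.98 each). Klf7 was closest to Cxadr and Zswim4 (0.99 each) and Klf12 to Casz1 and Msi2 (0.98 each), of which Msi2 encodes an RNA-binding protein of neural progenitors. Klf8 was closest to Galk2 and Tmem165 (0.96 each), Klf9 to Clcn5 and Wwc2 (0.94 each), Klf10 to Padi2 and Padi3 (0.97 each) and Klf3 to Dennd4c and Cnot2 (0.91 each). Over the 8 line means these 20 correlations were between 0.94 and 1.00. As the genes were picked by correlation over the same libraries, these values are high by choice and give no separate support.

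Of the 7 other Klf genes, 6 were tested in Mbd3-KO against WT. Of these, 2 were called, both higher, beside 33.8% of all genes, and the median log2 fold change was 0.27. Klf16, a Sin3-binding relative of Klf9, stood at 13.5, 14.3 and 16 CPM in WT, against 53.4, 40.7 and 43.2 CPM in Mbd3-KO (log2 fold change 1.65, SE 0.19, adjusted p = 1.65e-06). Klf14 rose by 1.29 (SE 0.29, adjusted p = 0.00101) at levels under 1 CPM. Klf13, abundant in WT at 149, 146 and 95.6 CPM, was at 77.6, 68.7 and 73.1 CPM in Mbd3-KO, a log2 difference of −0.83 (SE 0.14, adjusted p = 5.66e-05) that was under 2-fold. Klf17 had at most 21 counts in a library and was not tested. Of the 9 Sp genes, which encode the closest relatives of the Klf proteins, 8 were tested, 1 was called higher (Sp6, 2.62) and 2 lower (Sp4, −1.33, and the neural regulator Sp8, −6.94), with a median of −0.32. These counts stand beside 19.6% of all genes called higher and 14.2% called lower.

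Klf2, Klf4 and Klf5 work in ESCs beside the other factors of the naive pluripotency network. Of 12 such genes, 9 rose and 2 fell in Mbd3-KO against WT, with a median log2 fold change of 2.64. Zfp42 (3.51, SE 0.95), Prdm14 (3.33, SE 0.79), Tfcp2l1 (3.19, SE 0.57) and Esrrb (3.13, SE 0.57) changed most, and Sox2 (−1.03) and Gbx2 (−1.33), which are also expressed in neural progenitors, fell. Of the 6 genes of the LIF pathway, which acts upstream of Klf4, 4 rose and 0 fell in Mbd3-KO, beside the same shares. The median was 1.19. They were Lif (2.45, SE 0.49), Socs3 (1.52, SE 0.50), Lifr (1.32, SE 0.55) and Il6st (1.06, SE 0.26). In MBD2aΔGR against WT, where the third library stood apart, 3 LIF pathway genes rose, and of the network partners only Sall4 did (1.37, SE 0.42, adjusted p = 0.0483). Over all genes, 5.16% were called in that comparison. The summed LIF pathway level in the third MBD2aΔGR library was 748 CPM, the highest of the 24.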

How the data were processed

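The deposited matrix gives raw counts per gene; per the labels and the study's methods, the authors trimmed reads with Trim Galore, aligned them to mm9 with STAR and counted them per gene with QuasR. The authors named edgeR with thresholds of 0.05 for the adjusted p and 1 for the size of the log2 fold change. Here, edgeR 4.0.16 (R 4.3.3) was run on the counts of all 24 libraries in 1 quasi-likelihood fit with line as the only factor, filterByExpr, TMM scaling and Benjamini-Hochberg adjustment over 16582 genes, for 16 comparisons. Each SE was derived from the log2 fold change and its F statistic. CPM use TMM-scaled totals, RPKM the summed exon length, and log2 CPM a prior count of 1. The test was tested on simulated data for Mbd3-KO against WT. It recovered 18 of 50 genes changed 2-fold, which is the threshold itself, 41 of 50 at 4-fold and 49 of 50 at 8-fold. There were 8 false calls among 16331 genes. Only 50 genes were changed at each fold size, whereas 33.8% of genes were called in the real comparison. Single clones standing apart were not built in, so these rates may not hold for the real data. The depth was 27993858 to 49392806 counts per library. Libraries are named by column order. The columns of MBD2aR181C carry another residue number than the labels. Alternatives were RLE scaling, no low-count filter, 2-line fits, no fold change threshold, DESeq2 1.42.0, each library left out and, chosen after seeing the data, the legacy edgeR test. Named genes were all members, other Klf and Sp genes, the 2 nearest genes by Pearson correlation among genes whose log2 CPM averaged 1 or more, and listed pathway genes. Members and lists were chosen with earlier results of these data known.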

Additional observations from a re-analysis of the deposited data

How the results depend on the processing

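Under RLE scaling, without the low-count filter and with the legacy edgeR test, every count of called members stayed within 1.5 times its value, as it did with DESeq2. Fits of the 2 lines alone called 0 members in MBD2aΔGR against WT and 0 against Mbd3-KO, in place of 3 and 1; these fits estimate the spread from 6 libraries. Without the fold change threshold, 4 members passed in MBD2aΔGR against Mbd3-KO and 1 in MBD2a against MBD2aΔGR. Leaving out each library in turn gave 0 to 5 calls in MBD2aΔGR against WT, 0 to 5 in MBD2aΔGR against Mbd3-KO, 0 to 3 in MBD2a against MBD2aΔGR and 3 to 8 in MBD2a against MBD2aR181C. No called member changed sign under any of these alternatives. Of the uncalled differences, a chosen set of 38 was followed in this way rather than all of them. Within this set, 4 changed sign when 1 library was left out. Klf3 lay between −0.019 and 0.323 in Mbd3-KO against WT (also −0.002) and between −0.066 and 0.272 in MBD2t against WT. In MBD2aΔGR against WT, Klf3 lay between −0.332 and 0.047 (also 0.011) and Klf10 between −0.243 and 0.073 (also 0.003). No paired analysis was possible because the columns of the count matrix carry no replicate number. With 3 libraries per line, exact permutation of 2 lines cannot give a p below 0.1, so calls rest on the spread shared over lines. The cause of these shifts was not tested.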

Other observations

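Other genes known to act with or upstream of the members were read from the same comparisons. Of 11 genes for proteins that Klf factors recruit or that degrade them, 1 rose and 2 fell in Mbd3-KO against WT. These counts stood beside 33.8% of all genes called, and the median log2 fold change over the list was 0.00. Sin3b, a Sin3 scaffold, rose by 1.68 (SE 0.15, adjusted p = 1.15e-07), while Ctbp1 fell by 1.14 (SE 0.12, adjusted p = 7.51e-07) and Hdac2 by 1.23 (SE 0.13, adjusted p = 6.02e-07). Ctbp2 was 0.88 lower (SE 0.13, adjusted p = 1.81e-05), under 2-fold. In MBD2aΔGR 0 of the 11 were called, beside 5.16% of all genes.

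Of 12 immediate early genes, the class to which Klf6 and Klf10 are often assigned, 4 rose and 0 fell in Mbd3-KO, beside 33.8% of all genes called. The median was 0.95, and the 4 were Fos (2.83, SE 0.52), Fosb (2.66, SE 0.48), Junb (2.26, SE 0.33) and Atf3 (2.06, SE 0.27). Egr1 was 0.49 higher (adjusted p = 0.11). Of 8 genes that respond to or receive glucocorticoid and thyroid hormone, inducers of Klf9, 2 rose and 3 fell, beside the same 33.8%, with a median of −0.34. Sgk1 (2.13, SE 0.57) and the receptor Nr3c1 (1.11, SE 0.19) rose, and Zbtb16 (−2.34, SE 0.22), the thyroid receptor Thra (−2.09, SE 0.38) and Tsc22d3 (−1.24, SE 0.18) fell. Fkbp5, another glucocorticoid target, differed by 0.04 (SE 0.13, adjusted p = 0.79).

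Endothelium also expresses Klf2 and Klf4. The 8 endothelial markers had a summed level of 71.1 to 90.2 CPM in WT, of 137 to 239 CPM in Mbd3-KO, of 179 to 194 CPM in MBD2t and of 32.6 to 36.8 CPM in MBD2a; the part of endothelial cells in the Klf2 and Klf4 values was not tested. The 10 mesenchymal and smooth muscle markers gave 1 rise and 5 falls in Mbd3-KO, and of the 8 endothelial markers 2 rose, beside 33.8% of all genes called.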
